A study of Homo sapiens with 4 samples.

Results

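The genes described are the receptors of the epidermal growth factor (EGF) family, the ligands that bind them and ERRFI1, an inhibitor of these receptors. They were taken from a list of 10 symbols, as the array's transcript clusters (sets of probes for 1 transcript locus) that the platform annotation gives exactly 1 of these symbols. Of the 10 genes, 9 were found, each with 1 cluster, among 18418 genes with such a cluster. These were the receptors EGFR, ERBB2 and ERBB3, the ligands HBEGF, TGFA, EREG, BTC and EPGN, and ERRFI1. The ligand AREG was not analysed here.

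Total RNA of AGS cells, an established human gastric carcinoma line, was hybridised to Affymetrix Human Gene ST arrays. Cells at high confluency were given 0.01% ornithogalum, a homeopathic formulation, or ethanol as the vehicle for 36 h, and both groups grew in the same medium with serum. Each group had 2 arrays, labelled as biological replicates 1 and 2. The labels do not say whether these were separate experiments, so p-values measure only the spread between these samples, which may be technical.

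EGF receptors are tyrosine kinases of the cell surface that pair up when a ligand binds. EGFR binds the EGF-like ligands measured here, ERBB2 has no known ligand and serves as a partner, and ERBB3 has a weak kinase and binds neuregulins. The active pairs signal through the RAS and ERK chain and through phosphatidylinositol 3-kinase, and in the stomach EGFR ligands are known for their part in renewal and repair of the mucosa. The ligands are made as membrane proteins and are freed by proteases, and ERRFI1 (also called MIG6) binds the kinase of active receptors and shuts it off.

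The stretches just upstream of the start sites of 4 members that were higher after ornithogalum are shown first, because these members moved together and their start regions can be compared. They run from 250 bases before the start site to the base before it, on the gene's strand, from RefSeq on GRCh38.p14, whose promoter table held entries for 9 of the 10 members. EGFR has a pair of listed start sites, and TGFA, which also has a pair, is shown at its more upstream one. Capitals mark matches, on either strand, to any of 7 motifs. The AP-1 motif was searched as TGACTCA and the cAMP response element (CRE) as TGACGTCA. The E-box, which clock and MYC proteins bind, was searched as CACGTG. For the GC box of SP1 and its relatives the letters were GGGCGG. The box named CCAAT was searched by that name's letters, and the motif of the TEAD factors was given as GGAATG. The CArG box of SRF was also searched. The only overlap was in HBEGF, where 2 adjoining GC box matches share 1 base.
EGFR, upstream start (chr7:55018767-55019016, plus strand): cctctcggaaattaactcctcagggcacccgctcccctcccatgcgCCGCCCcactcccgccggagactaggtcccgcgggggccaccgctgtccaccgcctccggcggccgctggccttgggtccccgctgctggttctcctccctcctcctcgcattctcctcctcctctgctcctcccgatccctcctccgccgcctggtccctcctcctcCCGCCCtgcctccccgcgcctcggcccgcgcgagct
EGFR, downstream start (chr7:55109589-55109838, plus strand): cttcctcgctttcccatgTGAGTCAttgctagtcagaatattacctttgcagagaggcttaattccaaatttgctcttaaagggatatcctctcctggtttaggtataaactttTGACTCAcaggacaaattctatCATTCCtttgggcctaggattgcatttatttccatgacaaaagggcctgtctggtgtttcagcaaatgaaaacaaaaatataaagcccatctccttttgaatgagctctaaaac
HBEGF (chr5:140346604-140346853, minus strand): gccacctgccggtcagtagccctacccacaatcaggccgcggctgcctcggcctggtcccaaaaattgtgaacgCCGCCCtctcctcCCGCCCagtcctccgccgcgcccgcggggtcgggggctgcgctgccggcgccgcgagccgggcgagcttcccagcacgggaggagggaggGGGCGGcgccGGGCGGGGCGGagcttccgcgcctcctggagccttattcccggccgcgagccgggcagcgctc
TGFA (chr2:70553827-70554076, minus strand): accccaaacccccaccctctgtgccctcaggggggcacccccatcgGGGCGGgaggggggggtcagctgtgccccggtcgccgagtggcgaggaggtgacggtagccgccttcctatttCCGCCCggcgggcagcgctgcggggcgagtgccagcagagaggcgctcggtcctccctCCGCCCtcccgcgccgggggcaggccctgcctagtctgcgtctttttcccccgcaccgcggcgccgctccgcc
ERRFI1 (chr1:8026310-8026559, minus strand): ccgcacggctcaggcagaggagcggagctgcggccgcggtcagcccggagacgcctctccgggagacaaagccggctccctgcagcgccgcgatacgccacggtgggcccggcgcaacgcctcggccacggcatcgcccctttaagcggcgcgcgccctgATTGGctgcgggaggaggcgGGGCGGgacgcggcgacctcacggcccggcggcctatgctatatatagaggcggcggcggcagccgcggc

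The 250 bases before the upstream EGFR start held 2 GC box matches, those of HBEGF 5, those of TGFA 3 and those of ERRFI1 1, and ERRFI1 also held 1 match to the CCAAT box. GC boxes occurred in 42.6% of all 35116 windows of this length in the table and CCAAT boxes in 32%. The window before the downstream EGFR start held 2 AP-1 matches and 1 TEAD match, motifs present in 4.2% and 11.9% of all windows. Its GC content was 38.8%, against 73.6% for the upstream EGFR window, 76.4% for HBEGF, 75.6% for TGFA and 75.2% for ERRFI1, and a median of 58% over all windows. The window before the downstream TGFA start, not printed, held 0 matches to the 7 motifs and had a GC content of 64%. The printed windows were picked because their members rose. Of the other members, ERBB2, which fell, had a CCAAT box, no GC box and a GC content of 65.6%. The windows of EREG, BTC and EPGN, which did not pass, held no GC box (GC content 58%, 62% and 38%). That of AREG, not analysed here, held a GC box and a CRE. A link between motifs and changes was not tested. None of the windows printed held a CRE, an E-box or a CArG box, which occurred in 1.65%, 6.34% and 1.16% of all windows. These matches describe the letters of the windows, and the array's EGFR value does not separate transcripts from the 2 start sites.

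After 36 h with ornithogalum, EGFR, its ligands HBEGF and TGFA, and the inhibitor ERRFI1 rose, whereas ERBB2 and ERBB3 fell. The remaining ligands EREG, BTC and EPGN did not pass the test. Thus 4 of the 9 measured members rose and 2 fell at an adjusted p under 0.05 (limma on the deposited log2 values, two-sided, Benjamini-Hochberg over 21214 named clusters). Of all clusters tested 19.2% were called, 6.57% as higher and 12.6% as lower, against 66.7% of the members. In a fit of only the clusters brighter than the median, 45.6% of 10607 were called. Of the 6 members in that fit, 4 rose and 2 fell. The members were chosen with earlier results of these data known, so their share is a description. Groups did not overlap in 6 of the 9 members, as in 62.2% of all clusters, so separation of the groups by itself was common on these arrays.

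**Figure D1:**
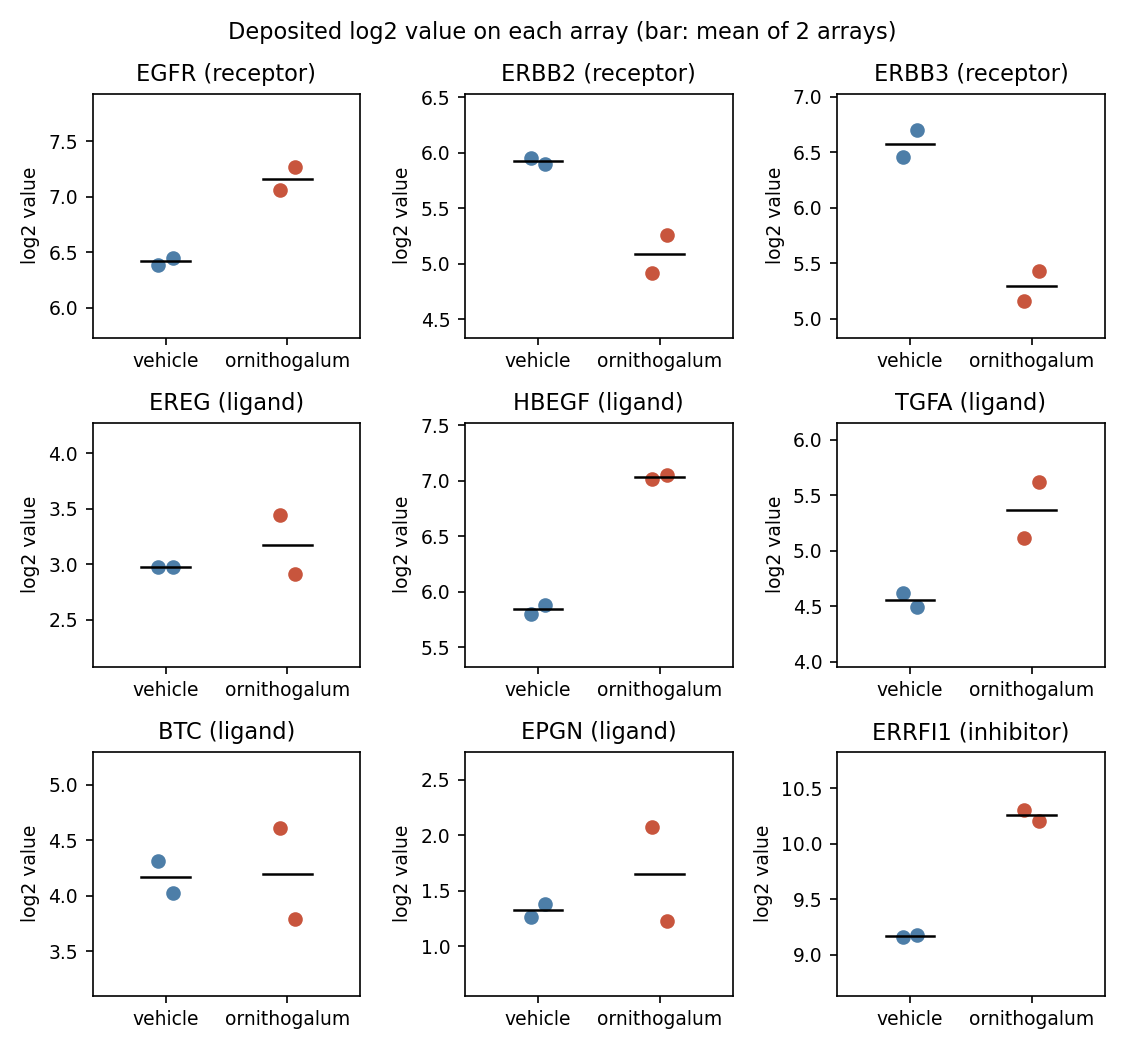
Deposited log2 value of each measured member on the 2 vehicle and the 2 ornithogalum arrays, with the group mean as a bar; every panel spans the same number of log2 units. The groups are apart for EGFR, ERBB2, ERBB3, HBEGF, TGFA and ERRFI1, while for EREG, BTC and EPGN one ornithogalum array lies above and the other below both vehicle arrays.

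Among the receptors, EGFR had log2 values of 6.39 and 6.45 on the vehicle arrays and 7.06 and 7.27 on the ornithogalum arrays. Both ornithogalum arrays lay above both vehicle arrays, by at least 0.61. The mean went from 6.42 ± 0.042 to 7.16 ± 0.15 (SD, n = 2 per group), a rise of 1.68-fold (log2 difference 0.75, SE 0.13, limma adjusted p = 0.0193). In bulk RNA a higher level in each cell and more cells with the transcript cannot be told apart, here and for the other members.

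ERBB2, the partner receptor, had log2 values of 5.95 and 5.90 with vehicle and 4.92 and 5.26 with ornithogalum. Both treated arrays were lower than either vehicle array, and the treated arrays were farther from each other (SD 0.24) than the vehicle arrays were (SD 0.039). The fall was 1.79-fold (log2 difference -0.84, SE 0.15, limma adjusted p = 0.0225). ERBB3, the neuregulin receptor, read 6.45 and 6.70 with vehicle and 5.16 and 5.44 with ornithogalum. The gap between the groups was 1.02 and so exceeded the difference between the arrays of either group. ERBB3 fell 2.42-fold (log2 difference -1.28, SE 0.16, limma adjusted p = 0.00806), and it was the receptor with the smallest p.

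Within each array the receptors therefore shifted against one another, in a way that a common rescaling of an array cannot alter. The EGFR to ERBB3 ratio was 4.07-fold higher with ornithogalum (log2 change 2.02). Any treated array exceeded any vehicle array in this ratio by 1.90 to 2.15. For EGFR to ERBB2 the log2 change was 1.59, with pairwise changes of 1.46 to 1.71. The ERBB2 to ERBB3 ratio changed by 0.44, with pairwise changes of 0.25 to 0.62 and a vehicle SD of 0.21. With 2 arrays against 2 an exact two-sided permutation test cannot go below p = 0.333, so these ratios are given without a test.

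**Figure D2:**
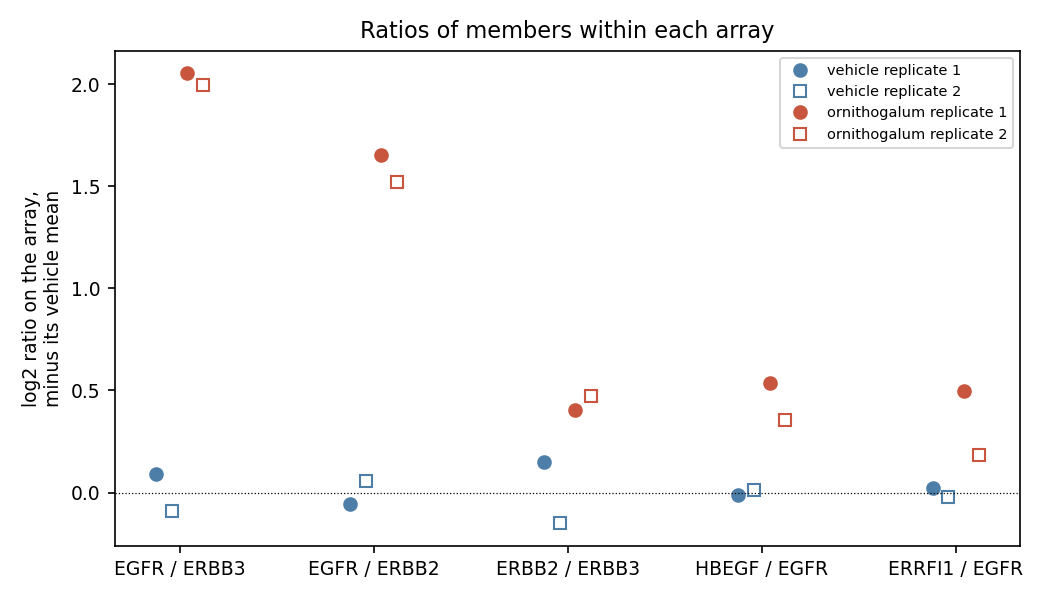
Log2 ratio of pairs of members on each of the 4 arrays, as the difference from the mean of the 2 vehicle arrays (dotted line). EGFR over ERBB3 stands at 2.05 and 1.99 and EGFR over ERBB2 at 1.65 and 1.52 on the ornithogalum arrays, while the vehicle arrays lie within 0.092 of 0 for the former and 0.057 for the latter.

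Among the ligands, HBEGF, a heparin-binding ligand of EGFR, had log2 values of 5.80 and 5.88 with vehicle and 7.01 and 7.05 with ornithogalum. The arrays of each group lay close together, and the groups were 1.13 apart. HBEGF rose 2.28-fold (log2 difference 1.19, SE 0.11, limma adjusted p = 0.00463), the smallest p of the members. TGFA, transforming growth factor alpha, another EGFR ligand, read 4.62 and 4.49 with vehicle and 5.12 and 5.62 with ornithogalum. The treated arrays differed from each other about as much as the nearest treated and vehicle arrays did, which were 0.50 apart. TGFA rose 1.75-fold (log2 difference 0.81, SE 0.20, limma adjusted p = 0.047), the call closest to the threshold.

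The other 3 ligands showed no difference beyond the spread of the treated arrays. EREG, epiregulin, read 2.97 on both vehicle arrays and 3.44 and 2.91 with ornithogalum (log2 difference 0.20, 95% interval -0.31 to 0.71, limma adjusted p = 0.526). BTC, betacellulin, read 4.31 and 4.02 with vehicle and 4.61 and 3.79 with ornithogalum (log2 difference 0.035, interval -0.72 to 0.79, limma adjusted p = 0.948). EPGN, epigen, read 1.27 and 1.38 with vehicle and 2.08 and 1.23 with ornithogalum (log2 difference 0.33, interval -0.41 to 1.07, limma adjusted p = 0.474). In all 3 genes ornithogalum replicate 1 was the highest array and replicate 2 the lowest, and the intervals of BTC and EPGN include a rise as large as that of EGFR. Their mean values were dim, at percentile 0.547 (EPGN), 20.7 (EREG) and 40.4 (BTC) of all named clusters. Ornithogalum replicate 1 was also the array with the narrowest distribution (interquartile range 2.44, against 2.56 for replicate 2 and 2.72 and 2.71 for vehicle). After quantile scaling, which gives all arrays the same distribution, the log2 differences were 0.11 (EREG), 0.11 (BTC) and 0.048 (EPGN), and after cyclic loess 0.075, 0.061 and 0.0052. Without replicate 1 the log2 differences were -0.064 (EREG), -0.38 (BTC) and -0.093 (EPGN). Without replicate 2 they were 0.47, 0.45 and 0.75. That fit sets a lone treated array against the spread of the vehicle pair alone (SD 0.0019 for EREG), whereas the treated arrays had an SD of 0.38. EREG and EPGN passed in it, as did 33.3% of all clusters, so these 2 calls carry no support. Over 17 alternative settings the limma adjusted p ran from 0.0385 to 0.814 for EREG and from 0.016 to 0.986 for EPGN.

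ERRFI1, the receptor inhibitor, had log2 values of 9.16 and 9.18 with vehicle and 10.30 and 10.21 with ornithogalum. The groups were 1.03 apart, and the SD within them was 0.014 and 0.068. ERRFI1 rose 2.12-fold (log2 difference 1.09, SE 0.11, limma adjusted p = 0.00557). Relative to EGFR on the same array, ERRFI1 changed by 0.34, with pairwise changes of 0.17 to 0.52, and HBEGF by 0.45, with pairwise changes of 0.34 to 0.55. TGFA relative to EGFR changed by 0.066, and its pairwise changes of -0.17 to 0.30 included 0.

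**Figure D3:**
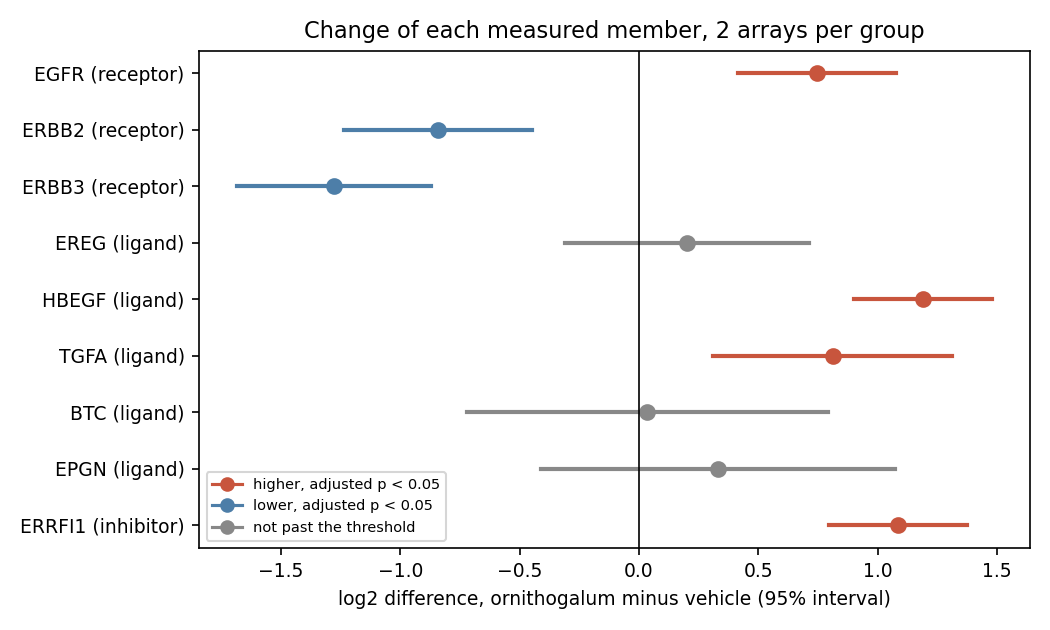
Log2 difference between ornithogalum and vehicle for each measured member, with its 95% interval from limma (2 arrays per group). EGFR, HBEGF, TGFA and ERRFI1 lie above 0 and ERBB2 and ERBB3 below it, while the intervals of EREG, BTC and EPGN include 0.

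Set side by side, 1 of 3 receptors rose and 2 fell, with a median log2 difference of -0.84, and 2 of 5 ligands rose and 0 fell, with a median of 0.33. At an unadjusted p under 0.05 limma likewise had 2 of 5 ligands, both higher, against 33.8% of all clusters. The median over all named clusters was 0.035. The ligand median is the value of EPGN, which did not pass. It was 0.11 after quantile scaling, 0.075 after cyclic loess, -0.064 without ornithogalum replicate 1 and 0.56 without replicate 2, so its sign turned on 1 array. The receptor median lay between -1.01 and -0.67 in all settings tried. All 5 ligand differences were above 0 with all arrays, but only 2 of 5 without ornithogalum replicate 1. Averaged over its members, each ornithogalum array was lower than the vehicle mean for the receptors (-0.60 and -0.32) and higher for the ligands (0.68 and 0.35). The difference between the ligand and receptor means was 0.97. Members are not replicates, so no p is given for it.

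The calls rested on both vehicle arrays. Without vehicle replicate 1 or without replicate 2 limma called 0 of the 9 members and 0 of 21214 clusters. Taking an unadjusted p under 0.05 instead, 4 members were higher and 2 lower without replicate 1, and 3 and 2 without replicate 2, where 19.8% and 18.8% of all clusters reached it. The log2 differences themselves moved little in these fits, to 0.72 and 0.78 for EGFR, 1.15 and 1.23 for HBEGF and -1.40 and -1.16 for ERBB3. Without ornithogalum replicate 1, 4 members rose and 2 fell, and without replicate 2, 6 rose and 2 fell, while the share of all clusters called was 20.4% and 33.3%. None of the 6 called members changed direction in any setting tried, but only the 3 scalings could have turned it. Their groups are apart, so leaving out an array could not, and the other settings kept the log2 difference. Over the alternatives with all arrays, their limma adjusted p ran from 0.000343 to 0.0701 for HBEGF and 0.000186 to 0.0741 for ERRFI1. It ran from 0.00121 to 0.131 for ERBB3, 0.00296 to 0.136 for EGFR, 0.00549 to 0.179 for ERBB2 and 0.0135 to 0.263 for TGFA. Every upper end came from the fit without moderation of the variances, an ordinary t test on 2 residual degrees of freedom.

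The remaining genes of the pathway were taken from 4 lists of 72 genes, of which 64 were measured. Of these 9 rose and 11 fell, 31.2% against 19.2% of all clusters, with a median log2 difference of 0.0032. In the fit of only the brighter clusters, 11 of 54 pathway genes rose and 17 fell, while 45.6% of all clusters in it were called. Centring each array on its median moved the median of all clusters from 0.035 to 0.20. Of the 64 pathway genes 9 then rose and 4 fell, beside 2238 of all clusters higher and 1898 lower (19.5% called). Without ornithogalum replicate 2, 10 rose and 19 fell, in a fit that called 33.3% of all clusters, 4004 of them lower against 2683 with all arrays. Without vehicle replicate 1 or 2 limma called 0, while an unadjusted p under 0.05 was reached by 8 higher and 11 lower genes without replicate 1 and by 7 and 12 without replicate 2, beside 19.8% and 18.8% of all clusters.

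The other family genes, the ligands EGF and NRG1 to NRG4 and the receptor ERBB4, had 0 of 6 called by limma, and 0 at an unadjusted p under 0.05. Of all clusters 19.2% were called and 33.8% reached that unadjusted p. Their log2 differences lay between -0.0011 (NRG4) and 0.29 (NRG3). Most of these genes were dim, at percentile 4.77 (NRG4), 9.33 (EGF), 18.15 (NRG1), 18.21 (ERBB4) and 20.62 (NRG3) of all named clusters, while NRG2 stood at 60.99. Absent calls in the dim genes therefore say little about change. Of 10 genes for ligand release 1 rose and 0 fell, a called share of 10% against 19.2% of all clusters. The gene that rose was ADAM9, a membrane protease, by 0.58 on the log2 scale (SE 0.11, limma adjusted p = 0.0262). ADAM17, the main protease that frees HBEGF, TGFA and AREG, had a log2 difference of 0.26 (SE 0.12, limma adjusted p = 0.213). ADAM10, which releases EGF and BTC, read 9.44 on both ornithogalum arrays against a vehicle mean of 9.41. RHBDF1 and RHBDF2, which carry ADAM17 to the surface, had differences of 0.41 and -0.49, and neither passed.

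Signal transducers went both ways, with 4 of 23 higher and 7 lower and a median log2 difference of -0.13. Of them 47.8% were called, against 19.2% of all clusters. The separate fit of only the brighter clusters called 45.6% of those clusters. It has its own adjustment, and the transducers' share in it is not given, so 47.8% cannot be set against 45.6%. PIK3R1, the regulatory subunit of phosphatidylinositol 3-kinase, read 7.59 and 7.53 with vehicle and 5.93 and 6.04 with ornithogalum, a fall of 2.99-fold (log2 difference -1.58, SE 0.12, limma adjusted p = 0.00336). SOS1, which loads RAS with GTP, fell by 1.19 on the log2 scale and its paralog SOS2 rose by 0.53 (limma adjusted p = 0.00565 and 0.0353). MAPK3, the gene of the kinase ERK1, fell by 1.18 (limma adjusted p = 0.00769) and AKT1, a kinase below phosphatidylinositol 3-kinase and named after its value was seen, by 0.91 (limma adjusted p = 0.0168). GRB7, an adaptor that binds ERBB2, rose 2.18-fold (log2 difference 1.12, SE 0.12, limma adjusted p = 0.00558), and the adaptor CRKL rose 1.41-fold. The kinase gene PDPK1 is uncertain, because the brightest of its 4 clusters rose by 0.79 while 2 others, with identical values, fell by 0.74. It is counted among the 4 higher by its brightest cluster. With the cluster of smallest p for each gene, 8 of the 64 pathway genes rose and 12 fell, against 9 and 11. GRB2, the adaptor that joins receptors to SOS1, had a difference of -0.44 and did not pass (limma adjusted p = 0.164).

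**Figure D4:**
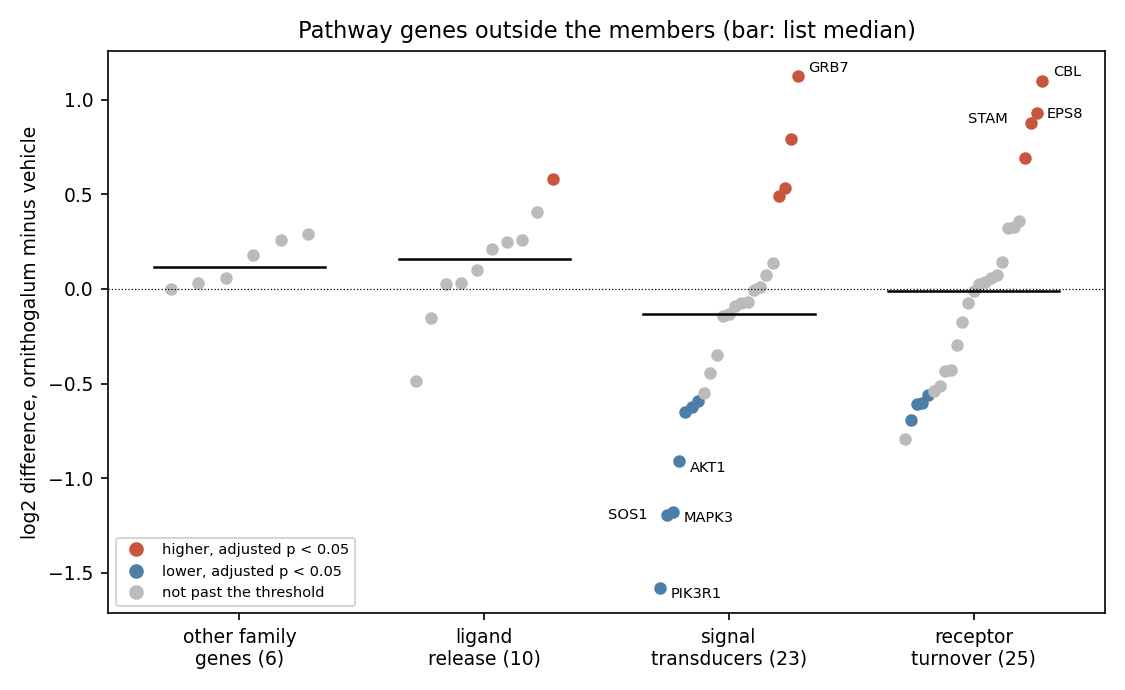
Log2 difference between ornithogalum and vehicle for each measured gene of 4 pathway lists, ordered by value within a list, with the number measured in parentheses and the list median as a bar. Called genes lie on both sides of 0 among the signal transducers (4 higher, 7 lower) and the turnover genes (4 higher, 4 lower), and none was called among the 6 other family genes.

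Genes of receptor turnover, which tag, sort or hold back the receptors, had 4 of 25 higher and 4 lower, with a median log2 difference of -0.011. Of them 32% were called, against 19.2% of all clusters. Their share in the separate fit of only the brighter clusters, which called 45.6% of those clusters, is not given. The 32% therefore cannot be set against 45.6%. CBL, the ubiquitin ligase that marks active EGFR for degradation, rose 2.14-fold (SE 0.14 on the log2 scale, limma adjusted p = 0.008). Its relatives CBLB and CBLC fell, by 0.56 and 0.69 on the log2 scale (limma adjusted p = 0.0283 and 0.0246). EPS8, an EGFR substrate, and STAM, a sorting protein of endosomes, rose 1.90-fold and 1.83-fold (limma adjusted p = 0.00763 and 0.0096), and SOCS4 rose 1.61-fold. SH3KBP1, a CBL-binding adaptor, fell by 0.61, and a second cluster of it fell by 0.56. RNF41, also called NRDP1, a ubiquitin ligase that acts on ERBB3, fell by 0.60 (limma adjusted p = 0.0442). LRIG1, a membrane inhibitor of the receptors, had a difference of -0.43 and did not pass (limma adjusted p = 0.0697).

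The members also differ in where they lie. ERBB2 and GRB7 are close neighbours on chromosome 17, with only MIEN1 between them among protein-coding genes in the RefSeq order, and they moved in opposite directions. MIEN1 read 6.27 and 6.36 with vehicle and 6.05 and 6.26 with ornithogalum (log2 difference -0.16, limma adjusted p = 0.444). On the other side of ERBB2, PGAP3 read 4.65 and 5.34 with vehicle and 3.21 and 4.55 with ornithogalum (log2 difference -1.11, limma adjusted p = 0.183). The ligand genes EPGN, EREG, AREG and BTC follow one another on chromosome 4, and the 3 measured ones are the ligands that did not pass. HBEGF on chromosome 5 and TGFA on chromosome 2, the ligands that rose, lie elsewhere. Among the other neighbours within 2 protein-coding genes of a member, LANCL2 near EGFR fell (log2 difference -0.96, limma adjusted p = 0.011). SNRPG near TGFA rose by 0.69 and RCHY1 near BTC by 0.94 (limma adjusted p = 0.0485 and 0.0108). The rest of those measured did not pass. The neighbouring genes were looked up after the members' values were seen.

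By distance between array profiles, each centred on its own mean, the genes most like ERBB3 over the 4 arrays were GRK5 (distance 0.059 in log2 units), PCIF1 (0.059) and TSPAN1 (0.062). Those most like HBEGF were UBE2S (0.059), CD59 (0.072) and CKS1B (0.077). Their log2 differences ran from -1.31 to -1.23 for the first set and from 1.11 to 1.23 for the second. That these lie near the members' own differences follows from the choice by distance.

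The arrays carried the epithelial genes that the label calls for. Of 6 measured epithelial markers 0 rose and 1 fell, with a median log2 difference of 0.096. EPCAM, KRT8 and KRT18, each by its brightest cluster, read between 9.34 and 10.6 on all 4 arrays and did not pass the test, and KRT19 fell by 1.40. CLDN4 and ELF3 had differences of 0.51 and 0.28 with the groups apart and did not pass. Limma called 0 of 8 fibroblast markers, 1 of 6 leukocyte markers and 0 of 6 markers of endothelial or erythroid cells. At an unadjusted p under 0.05 there were 1, 1 and 0. Of all clusters 19.2% were called and 33.8% reached that unadjusted p. The called marker was CD68, a lysosomal protein of macrophages that other cells also make (log2 difference 1.17). PTPRC, which defines leukocytes, read between 1.44 and 1.74, and CD3E, CD14 and ITGAM between 2.81 and 4.27. LYZ, of the same list, was bright on all 4 arrays, between 11.70 and 11.76 (log2 difference -0.038). It therefore raises the list means that follow. The mean log2 value of the leukocyte list was 5.33 on both treated arrays, against 5.11 and 5.07 with vehicle. The other 5 markers without CD68 averaged 4.85 and 4.80 with ornithogalum and 4.80 and 4.76 with vehicle, a mean difference of 0.049. The part of these markers in the members' changes was not tested. Over the named clusters, which share their arrays and are no replicates, the correlation (Pearson) was 0.981 for the treated pair and 0.995 for the vehicle pair. The number of arrays limits the precision of all values.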

How the data were processed

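Per the submitters' processing notes, the authors computed the values with RMA (robust multi-array average) in Affymetrix Expression Console 1.1, and they deposited 1 log2 value per array and transcript cluster for 33297 clusters. How the background was removed, arrays scaled or clusters filtered is not stated in the labels. The values were used as deposited, without a filter on dim clusters.

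Clusters were named with the array's annotation, in which 19461 clusters have 1 symbol, 1753 have several and 12083 have none. Symbols were updated through gene numbers in the RefSeq gene table (19429 matched). A gene with several clusters was represented by the one of highest mean. Of the listed members, AREG was not analysed here, nor were 8 of 72 pathway genes.

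Ornithogalum and vehicle (2 arrays each) were compared over the 21214 clusters with at least 1 symbol with lmFit and eBayes of limma 3.58.1 (R 4.3.3, no trend), taking 0.05 as the threshold on the adjusted p. "Rose" and "fell" refer to calls in this test, and folds are 2 raised to the log2 difference. The code was tested on simulated data. The members and lists were chosen with earlier results of these data known. Named were all members, the 4 called genes of smallest p in each pathway list, any gene needed to state a count of at most 5, and the 3 genes nearest in profile to the receptor and the ligand of smallest p; other genes were named after their values were seen. Alternatives were the replicate number as a block, each array left out, 3 scalings, brighter clusters, other variance priors, other sets of clusters, array weights, another cluster per gene and other thresholds. Another background correction needs probe-level files and was not run.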

Additional observations from a re-analysis of the deposited data

How the results depend on the processing

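The 6 called members kept their direction in all 18 alternative settings, of which only the 3 scalings could have turned it. Counts are given as members higher and lower and pathway genes higher and lower, and were 4, 2, 9 and 11 as reported. They were 0, 0, 0 and 0 without moderation of the variances (limma's eBayes step left out), where 1 cluster of 21214 was called. With every cluster of the table tested they were 2, 1, 4 and 4, beside 7.94% of all clusters called. At an adjusted p under 0.01 they were 2, 1, 4 and 3, beside 6.8%. Pathway genes lower were 4 after median centring, where 1898 of all clusters were lower against 2683 as reported. They were 17 with brighter clusters only, with an intensity trend and with a robust prior. The shares of all clusters called were 19.5% after median centring, 45.6% with brighter clusters, 24.4% with the trend and 24.1% with the robust prior. Leaving out each array in turn gave ranges of 0 to 6, 0 to 2, 0 to 10 and 0 to 19. Without single arrays the log2 difference ran from -0.064 to 0.47 for EREG, from -0.38 to 0.45 for BTC, including -0.11 without vehicle replicate 2, and from -0.093 to 0.75 for EPGN, and the signs turned. The difference between ligand and receptor means was 1.46 with brighter clusters only, which leave out EREG, BTC and EPGN, against 0.97.

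With the replicate number as a block the counts were 3, 2, 6 and 8, beside 15.6% of all clusters called. TGFA then had a limma adjusted p = 0.0536. Over its alternatives with all arrays this value ran from 0.0135 to 0.263, with the upper end from the fit without moderation. Deviations of same-numbered arrays from their group means correlated at -0.059 across clusters. With 2 pairs, that value cannot show whether same-numbered arrays shared an experiment, so no conclusion is drawn from calls lost under the block. The causes of these changes were not tested, apart from the smaller or larger sets of clusters named. Without a vehicle array only 1 residual degree of freedom remains and the lone vehicle array is assumed to vary like the treated pair, and likewise a lone treated array like the vehicle pair.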
